A study of Mus musculus with 12 samples.

Results

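The genes described here are 9 components of retinoic acid signalling in mouse fetal and newborn male germ cells. They comprise the retinoic acid receptors Rara, Rarb and Rarg, the retinoid X receptors Rxra and Rxrb, the degrading enzymes Cyp26a1 and Cyp26b1, the cellular binding protein Crabp1 and the uptake receptor Stra6. The members were chosen by symbol, by matching the Ensembl identifiers of the RNA sequencing table to GENCODE symbols. All 9 were found among the 55487 genes of the table.

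The 12 RNA libraries came from male germ cells of Mvh-Venus transgenic mice, a line whose germ cells fluoresce. Called gonocytes in the labels, such cells precede spermatogonia. There were 3 libraries for each of 4 stages, E13.5 and E16.5 before birth, P0 at birth and P3 on the third day after it. Titles and source names call all 12 wild type, whereas the genotype tag reads Morc1 (+/-) at E13.5 and P0 and Morc1 (-/-) at E16.5 and P3. The tag is the same for every library of a stage, so stage and tagged genotype cannot be told apart in any consecutive comparison or in P3 against E13.5. P0 against E13.5 and P3 against E16.5 compare stages with the same tag. Strain, and whether libraries came from separate or pooled animals, are not given in the labels, so p-values measure only the spread between these libraries, which may be technical.

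Retinoic acid is made from vitamin A inside cells, by retinol dehydrogenases followed by retinaldehyde dehydrogenases. It binds nuclear receptors of the RAR family, which sit on DNA as partners of the RXR family and switch between corepressors and coactivators when the ligand binds. CYP26 enzymes oxidise it, and in the fetal testis CYP26B1 is known for keeping it away from germ cells, whose Stra8 gene responds to it. After birth, retinoic acid is known to drive the differentiation of spermatogonia.

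Values are normalized counts, that is, the reads of a gene over the size factor of the library, and libraries are named by stage and by the number 1, 3 or 4 of their column. Recovered reads numbered 40946616 to 51533747 per library. Morc1 itself had 1621 to 1830 normalized counts in E13.5 libraries, 28328 to 32917 in E16.5, 7280 to 7708 in P0 and 10584 to 11129 in P3 libraries, so the stages tagged -/- did not have the lowest levels. The summed level of 5 germ cell markers was 231200 to 256806 at E13.5, E16.5 and P3, and 134064 to 141190 at P0. The sum over all genes was also lowest at P0, 23044303 to 24866058 per library against 36124232 to 54397541 elsewhere. The low germ cell sum at P0 therefore depends on the scaling of libraries. The 5 markers did not all move in the same direction between stages. Because these are bulk samples, fewer cells of a type and less RNA per cell cannot be told apart. Stages were compared with limma on log2(normalized count + 1) over 22384 genes, and "rose" and "fell" refer to Benjamini-Hochberg adjusted p under 0.05.

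The promoters of Rarb and Cyp26a1 are shown because these were the 2 of 9 members with a direct repeat spaced by 5 bases upstream of a start site, the arrangement best known as a retinoic acid response element. The half-sites searched were AGGTCA, then AGTTCA, then GGGTCA, then GGTTCA. They were taken in all pairs, on both strands, in the 250 bases before each RefSeq start on GRCm38.p6. The repeat was in 29 of 32851 windows (0.0883%), or in 28 of 27025 genes (0.104%), and in none of the 38 matched other genes of the pathway. All 9 members were matched, with 18 windows. The Rarb sequence is chr14:16575477-16575726, minus strand, and the Cyp26a1 sequence is chr19:37697558-37697807, plus strand. Each is written 5′ to 3′ on the strand of its gene, and capitals mark the half-sites.
Rarb: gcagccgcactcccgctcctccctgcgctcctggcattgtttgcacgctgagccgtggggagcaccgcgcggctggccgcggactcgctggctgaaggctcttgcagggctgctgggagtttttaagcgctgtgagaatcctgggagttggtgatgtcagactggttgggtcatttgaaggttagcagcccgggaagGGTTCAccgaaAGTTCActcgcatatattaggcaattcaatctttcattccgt
Cyp26a1: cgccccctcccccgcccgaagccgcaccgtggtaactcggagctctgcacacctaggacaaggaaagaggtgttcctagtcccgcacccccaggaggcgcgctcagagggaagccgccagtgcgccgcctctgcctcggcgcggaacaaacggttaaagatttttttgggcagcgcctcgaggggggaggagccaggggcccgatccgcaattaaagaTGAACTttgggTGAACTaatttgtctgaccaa
In Rarb the repeat lay 53 to 37 bases before the start, on the strand of the gene. In Cyp26a1 it lay 32 to 16 bases before the start, on the opposite strand. The start used for Rarb lies inside the annotated gene, which spans 16430839 to 16819156 on the minus strand. The counts of Rarb cover the whole gene and are not split by start. Repeats spaced by 1 base (0.164% of windows) or 2 bases (0.174%) were found at no member. A match describes these letters only and shows neither a bound site nor a cause of the levels below.

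All 9 genes changed among the 4 stages by limma's F-test, in a data set in which 95.2% of genes did. At E16.5 against E13.5, 6 members rose and 2 fell; of all genes tested 80.1% changed, 45.5% upward and 34.6% downward. At P0 against E16.5, 4 rose and 3 fell, where the background was 61.0%, with 27.6% upward and 33.4% downward. At P3 against P0, 5 rose and 2 fell, where it was 76.5%, with 40.1% upward and 36.4% downward. The median log2 fold change of the members was 0.81, 0.58 and 0.33 in these comparisons, against 0.31, -0.01 and 0.05 over all genes tested. Rarb passed the filter on low values only through E16.5, P0 and P3, and Cyp26a1 mainly through P0 and P3, so both were bound to differ from E13.5. The counts moved with the scaling of libraries. With equal library totals, 7 rose and 2 fell at P0 against E16.5, where 54.9% of all genes rose and 14.8% fell. At P3 against P0, 3 rose and 5 fell on that scaling, where 19.7% of all genes rose and 58.4% fell.

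**Figure D1:**
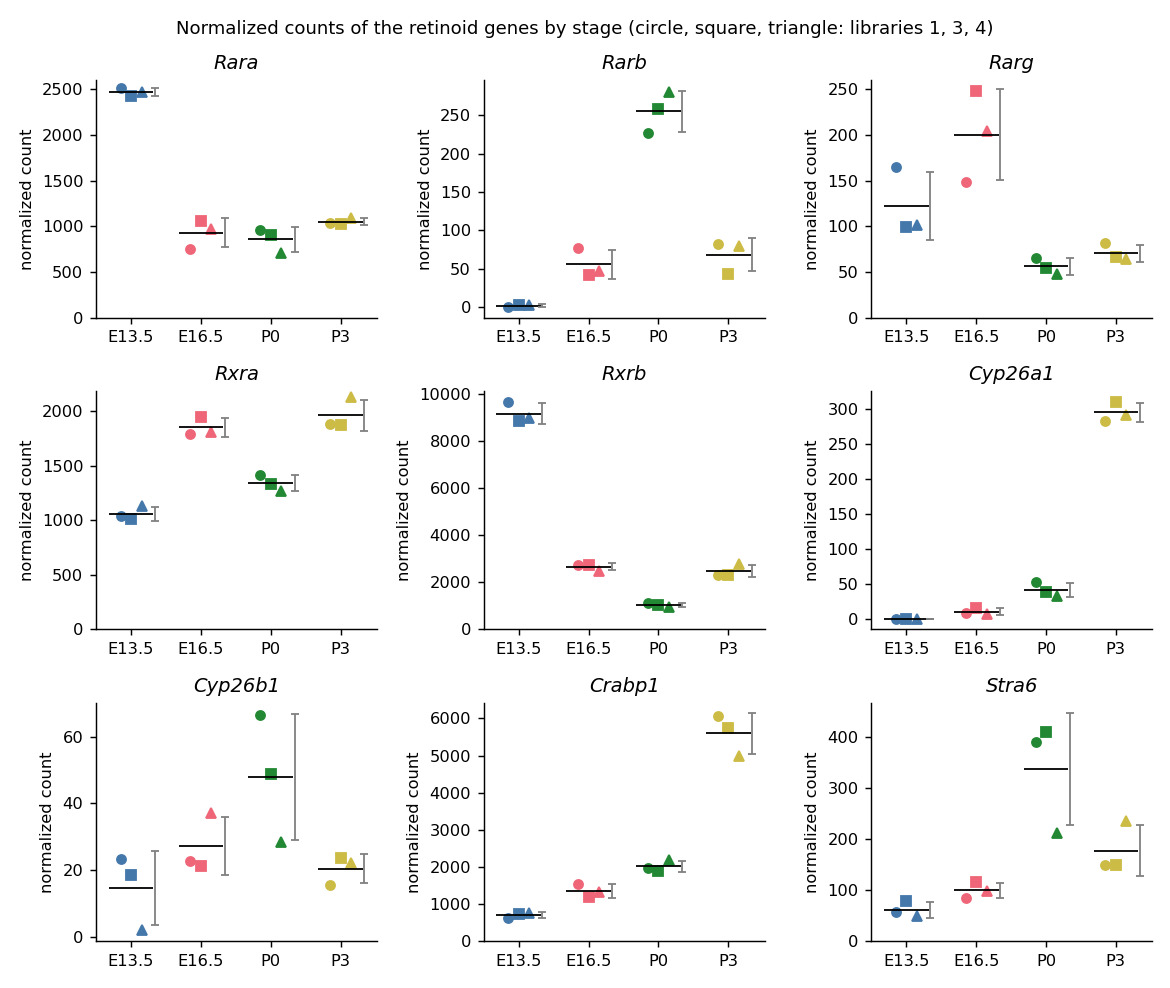
Normalized counts (y axis, linear) of the 9 genes by stage (x axis); each symbol is 1 library, the horizontal line is the stage mean and the grey bar its SD (n = 3). Rara and Rxrb are highest at E13.5, Rarb, Cyp26b1 and Stra6 have their highest mean at P0, and Cyp26a1 and Crabp1 are highest at P3.

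Among the RAR genes, Rara was high at E13.5 and lower from E16.5 on. Rara (ENSMUSG00000037992, chromosome 11, 98927818 to 98974942, + strand, GRCm38) encodes RARα, the main RAR of Sertoli cells. Its normalized counts were 2513, 2428 and 2477 for E13.5, 752, 1064 and 974 for E16.5, 965, 904 and 705 for P0, and 1036, 1024 and 1092 for P3, in libraries 1, 3 and 4. All E13.5 libraries were above all others, and E16.5 and P0 overlapped. Rara fell by 1.42 on the log2 scale from E13.5 to E16.5 (SE 0.125, adjusted p 1.71e-08). The difference at P0 against E16.5 was -0.11 (adjusted p 0.447) and took the opposite sign with each other scaling. At P3 against P0 it was 0.30 (adjusted p 0.0361), but 0.01 with TMM factors (adjusted p 0.916), -0.14 with median-of-ratios factors and -0.54 with equal totals. Without P0 library 4 it was 0.17 (adjusted p 0.217), and without P3 library 1, 3 or 4 the adjusted p was 0.0637, 0.0590 and 0.0949. With no filter the adjusted p was 0.0616, and with a pseudocount of 0.1 it was 0.0505. The levels at E16.5, P0 and P3 are thus not ordered beyond the choice of scaling.

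Rarb went from near the detection limit to a peak at P0. Rarb (ENSMUSG00000017491, chromosome 14, 16430839 to 16819156, - strand) encodes RARβ, whose gene is a textbook target of retinoic acid and carries the repeat printed above. It had 0, 2.18 and 3.15 normalized counts for E13.5, from 5 reads in all, then 77.3, 41.8 and 47.5 for E16.5, 227, 258 and 281 for P0, and 82.4, 43.2 and 79.0 for P3. The P0 libraries were above all others, and E16.5 and P3 overlapped. Against E13.5, the ratio of pooled reads was 30.9 at E16.5 (95% counting interval 13.02 to 96.4), 144 at P0 (61.7 to 445) and 38.4 at P3 (16.2 to 119). Such intervals cover counting error only, since amplified reads are not independent molecules. Rarb rose by 2.23 on the log2 scale from E16.5 to P0 (SE 0.457, adjusted p 0.000492) and fell by 1.94 from P0 to P3 (adjusted p 0.00106). With a pseudocount of 0.1 these adjusted p-values were 0.0698 and 0.0892. P3 and E16.5 did not differ beyond their spread (0.29, adjusted p 0.593).

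Of the exon bases of Rarb, 38.4% overlap Top2b or Gm48162 on the opposite strand, and 34.1% of its 50-base words occur in transcripts of other genes. The strand setting of the counting is not given in the sources used here, so reads of overlapping genes cannot be told apart. Top2b, which encodes a DNA topoisomerase, had 1171 ± 109 normalized counts for E13.5, 344 ± 39.1 for E16.5, 675 ± 80.2 for P0 and 451 ± 48.4 for P3 (SD, n = 3). Its level was highest at E13.5, where Rarb had at most 3.15 normalized counts in a library. In the later steps Top2b moved in the directions of Rarb. It rose by 0.97 on the log2 scale from E16.5 to P0 (adjusted p 4.79e-06) and fell by 0.58 to P3 (adjusted p 0.00055). The part of Top2b reads in the level of Rarb was not tested.

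Rarg had its highest level at E16.5. Rarg (ENSMUSG00000001288, chromosome 15, 102234938 to 102257517, - strand) encodes RARγ, the receptor associated with the differentiation of spermatogonia. It had 165, 99.0 and 102 normalized counts for E13.5, 149, 248 and 204 for E16.5, 65.8, 54.3 and 48.3 for P0, and 81.4, 66.8 and 63.8 for P3. Every library at E13.5 and E16.5 was above every library at P0 and P3, while E13.5 overlapped E16.5 and P0 overlapped P3. From E16.5 to P0 Rarg fell by 1.80 on the log2 scale (SE 0.255, adjusted p 1.25e-05), and in P3 it was still lower than in E16.5, with -1.47 on that scale (adjusted p 7.67e-05). The rise from E13.5 to E16.5 was 0.72 (adjusted p 0.0161). It missed the threshold without E13.5 library 3, E13.5 library 4 or E16.5 library 3, with adjusted p of 0.0643, 0.0575 and 0.0866. P3 against P0 gave 0.33 (adjusted p 0.249), with the opposite sign under median-of-ratios factors (-0.10) and equal totals (-0.50).

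Per kilobase of exon, which allows levels of different genes to be set side by side, Rara made up most of the RAR family in every library. Its share was 95.2% ± 1.257 for E13.5, 78.6% ± 1.02 for E16.5, 75.8% ± 3.96 for P0 and 89.1% ± 1.78 for P3 (SD, n = 3). Rarg was the next largest at E16.5, with 17.2% ± 1.53, whereas at P0 this was Rarb, with 19.1% ± 4.14 against 5.09% ± 0.395 for Rarg. A share within a library does not depend on how libraries are scaled. The shares may still depend on how reads were counted in the 38.4% of Rarb exon bases that overlap Top2b or Gm48162, which was not tested. The P0 share of Rarb ranged from 15.4% to 23.6%, and at E13.5 it was at most 0.101%.

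**Figure D2:**
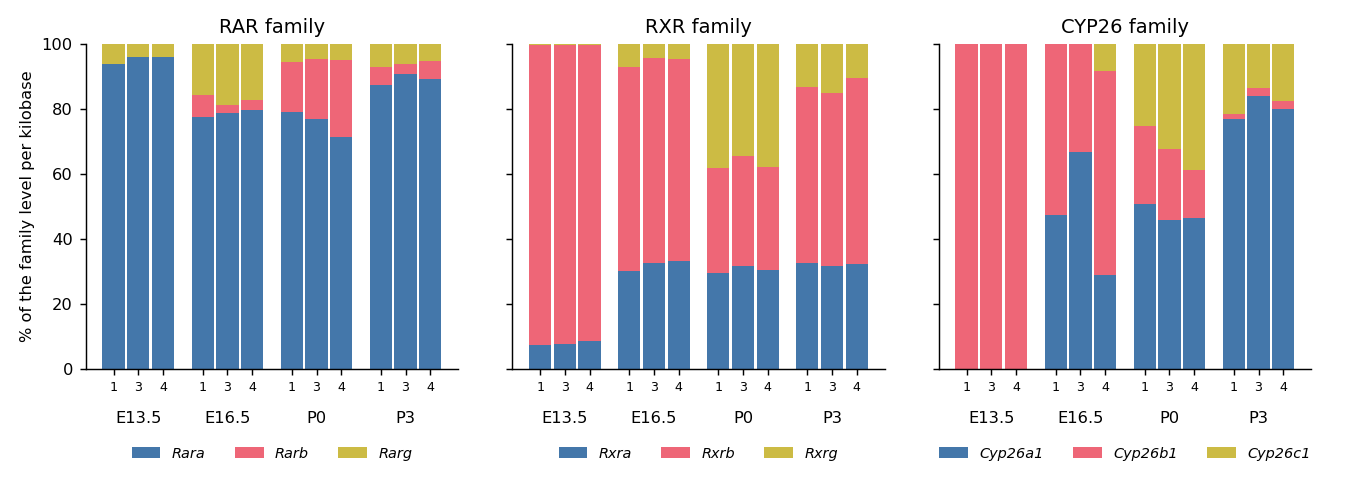
Share (y axis, percent) of each gene in the summed level per kilobase of its family, for the RAR, RXR and CYP26 families; each bar is 1 library, grouped by stage. Rxrg and Rxrb have similar shares at P0 (36.9% and 32.6%), Rarb appears from E16.5 on, and Cyp26a1 holds 80.4% of the CYP26 level at P3.

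Rxrb changed most among the RXR members. Rxrb (ENSMUSG00000039656, chromosome 17, 34031812 to 34038399, + strand) encodes RXRβ, an obligate partner of RARs that is also needed in Sertoli cells. Its normalized counts were 9666, 8820 and 8975 for E13.5, 2732, 2733 and 2475 for E16.5, 1124, 1043 and 968 for P0, and 2308, 2318 and 2754 for P3. E13.5 was above and P0 below all other libraries, and E16.5 overlapped P3. It fell by 1.79 on the log2 scale from E13.5 to E16.5 (SE 0.0857, adjusted p 6.43e-12), fell by 1.34 from E16.5 to P0 (adjusted p 8.65e-10) and rose by 1.23 from P0 to P3 (adjusted p 1.12e-09). With equal totals the last was 0.39, with the same sign and past the threshold. P3 against E16.5 gave -0.11 (adjusted p 0.269), but -0.29 with median-of-ratios factors (adjusted p 0.00499).

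Rxra was lowest at E13.5. Rxra (ENSMUSG00000015846, chromosome 2, 27676440 to 27762957, + strand) encodes RXRα, the most widely used RXR partner. It had 1043, 1010 and 1129 normalized counts for E13.5, 1796, 1951 and 1815 for E16.5, 1416, 1337 and 1274 for P0, and 1888, 1880 and 2129 for P3. The stages did not overlap except E16.5 and P3. Rxra rose by 0.81 on the log2 scale from E13.5 to E16.5 (SE 0.0824, adjusted p 1.21e-07). At P0 against E16.5 it fell by 0.47 (adjusted p 0.000122), but the value was 0.20 with equal totals. At P3 against P0 it rose by 0.55 (adjusted p 1.36e-05), but the value was -0.29 with equal totals and 0.11 with median-of-ratios factors (adjusted p 0.228).

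Rxrb dominated the RXR family at E13.5 and shared it with Rxra and Rxrg at P0. Per kilobase, Rxrb held 91.9% ± 0.679 of the family for E13.5, 62.7% ± 0.387 for E16.5, 32.6% ± 1.07 for P0 and 55.1% ± 1.98 for P3. Rxra held 7.76% ± 0.548 at E13.5, then 31.96% ± 1.69, 30.5% ± 1.01 and 32.05% ± 0.453. Rxrg, the third gene of the family and listed among the other pathway genes, held 0.324% ± 0.137, 5.38% ± 1.52, 36.9% ± 1.97 and 12.9% ± 2.25. In Rxrg the normalized counts were 10.6, 19.6 and 25.2 at E13.5 and 773, 618 and 664 at P0. It rose by 2.81 and 2.40 on the log2 scale over the first 2 intervals and fell by 1.05 from P0 to P3 (adjusted p 5.47e-08, 8.83e-07 and 0.00209).

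Of the degrading enzymes, Cyp26a1 rose at every step. Cyp26a1 (ENSMUSG00000024987, chromosome 19, 37697798 to 37701536, + strand) encodes an oxidase that clears retinoic acid and is itself a textbook target of it, with the repeat printed above. It had no read in any E13.5 library, then 7.63, 15.8 and 6.33 normalized counts for E16.5, 52.2, 37.5 and 32.8 for P0, and 284, 310 and 292 for P3. No 2 stages overlapped. Against a floor of 3 reads per library at E13.5, it was at least 3.11-fold higher in E16.5, at least 12.8-fold higher in P0 and at least 92.5-fold higher in P3 libraries. Cyp26a1 rose by 2.01 on the log2 scale from E16.5 to P0 (SE 0.382, adjusted p 0.000247) and by 2.85 from P0 to P3 (adjusted p 3.81e-06). Across the other scalings the latter ranged from 2.02 to 2.57.

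Cyp26b1 stayed low. Cyp26b1 (ENSMUSG00000063415, chromosome 6, 84571414 to 84593908, - strand) encodes the CYP26 enzyme known from fetal Sertoli cells. Its normalized counts were 23.2, 18.5 and 2.103 for E13.5, 22.9, 21.4 and 37.2 for E16.5, 66.3, 48.9 and 28.5 for P0, and 15.5, 23.6 and 22.3 for P3. Each consecutive pair overlapped apart from P3 and P0. Consecutive log2 fold changes were 1.27, 0.76 and -1.13 (SE 0.605, adjusted p 0.0645, 0.291 and 0.0997). With each other scaling the first and the last passed the threshold, and the last also passed it in edgeR (adjusted p 0.0224) and DESeq2 (0.0265). P0 was above E13.5 by 2.03 (adjusted p 0.00514), or by 1.09 without E13.5 library 4, the library with 2.103.

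Per kilobase, Cyp26a1 and Cyp26b1 were at similar levels at E16.5, 5.005 ± 2.59 and 5.08 ± 1.63 normalized counts per kilobase. At P3 they were at 149 ± 6.79 and 3.82 ± 0.809. Cyp26c1, the third CYP26 gene, had no read at E13.5 and 2 reads at E16.5. It had 23.0, 23.4 and 24.1 normalized counts at P0 and 69.8, 44.2 and 56.7 at P3. The ratio of pooled reads at P0 against E16.5 was 39.8 (95% counting interval 10.8 to 332). The change to P3 was 1.22 on the log2 scale (adjusted p 0.0238) and missed the threshold with each other scaling, where it ranged down to 0.40, and without any 1 of the P0 libraries or P3 library 1.

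**Figure D3:**
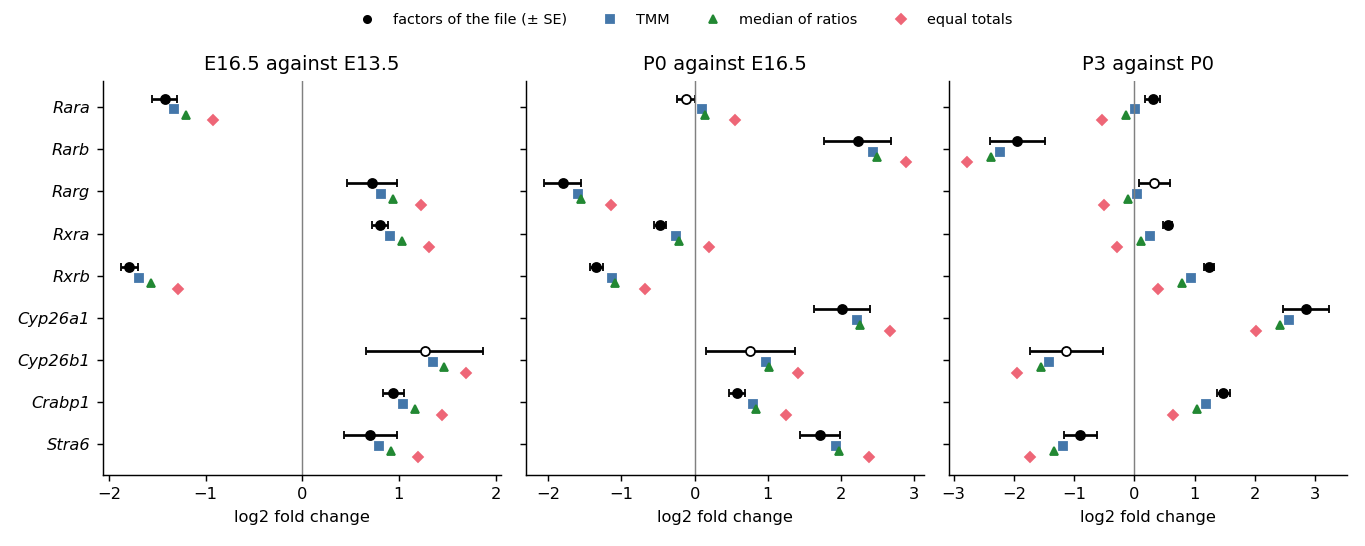
Log2 fold changes (x axis) of the 9 genes between consecutive stages, with the size factors of the table (black circles ± SE, filled where adjusted p is under 0.05) and with 3 other scalings. Rarb and Cyp26a1 are not drawn against E13.5, where they were at or near 0 reads. Rara, Rarg and Rxra are the genes whose points fall on both sides of 0, in the comparisons that involve P0.

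Crabp1 rose at every stage. Crabp1 (ENSMUSG00000032291, chromosome 9, 54764748 to 54773110, + strand) encodes a cytosolic protein that holds retinoic acid and passes it to CYP26 enzymes. It had 623, 719 and 754 normalized counts for E13.5, 1533, 1173 and 1331 for E16.5, 1959, 1880 and 2188 for P0, and 6054, 5748 and 4991 for P3. The stages followed one another with no overlap. The increases were 0.94, 0.58 and 1.48 on the log2 scale (SE 0.109, adjusted p 5.48e-07, 0.000203 and 2.32e-09), and P3 was above E16.5 by 2.06 (adjusted p 5.06e-11). All 3 steps kept their sign and stayed past the threshold with each other scaling, where the last was 0.64 with equal totals.

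Its paralog Crabp2, whose protein delivers retinoic acid to the nucleus, took another course. Crabp2 rose from 434 ± 39.9 to 819 ± 42.1 normalized counts from E13.5 to E16.5, then fell to 282 ± 47.7 at P0 and 147 ± 2.42 at P3 (SD, n = 3; adjusted p 9.30e-06, 4.08e-08 and 1.08e-05). Per kilobase, Crabp1 accounted for 72.6% ± 2.62 of the pair for E13.5, 72.9% ± 2.82 for E16.5, 92.1% ± 1.51 for P0 and 98.4% ± 0.139 for P3. At P3 the level of Crabp1 per kilobase was 6980 ± 682 normalized counts, above each of the other 8 members.

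Stra6 was highest at P0 and unequal among its libraries. Stra6 (ENSMUSG00000032327, chromosome 9, 58063788 to 58153996, + strand) encodes the membrane receptor that takes up retinol from its plasma carrier, and its name records that it is stimulated by retinoic acid. It had 57.0, 78.3 and 48.4 normalized counts for E13.5, 84.0, 115 and 98.1 for E16.5, 391, 411 and 212 for P0, and 149, 148 and 235 for P3. P0 library 4 was below P3 library 4, so P0 and P3 overlapped. From E16.5 to P0 Stra6 rose by 1.71 on the log2 scale (SE 0.273, adjusted p 4.39e-05), or by 2.02 without P0 library 4. From P0 to P3 it fell by 0.90 (adjusted p 0.00681), or by 1.21 without P0 library 4. The first step, 0.70 (adjusted p 0.0265), missed the threshold without E13.5 library 1 or 4 or E16.5 library 3 or 4, where the highest adjusted p was 0.0989.

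Sertoli cell markers had their highest mean sum at P0, the stage at which the means of Stra6, Rarb and Cyp26b1 were also highest. The 8 markers summed to 3840 to 5312 normalized counts for E13.5, 11393 to 16618 for E16.5, 13993 to 28029 for P0 and 5604 to 7256 for P3. Of the 8, 7 rose from E16.5 to P0, where 27.6% of all genes rose, and 7 fell from P0 to P3, where 36.4% of all genes fell. None of the 8 was at 0. With equal totals 54.9% of all genes rose and 58.4% fell in these steps, and the markers were not counted on that scaling. Within P0 the sums were 28029, 23382 and 13993 in libraries 1, 3 and 4, so library 4 was lowest for the markers as for Stra6 and Cyp26b1. That order was not particular to these genes. Library 4 was also the lowest P0 library for Rara, Rarg, Rxra, Rxrb and Cyp26a1. The germ cell sum (134064) and the sum over all genes (23044303) were lowest there too, whereas Rarb and Crabp1 were highest in library 4. Peritubular markers, 4 genes, summed to 3695 to 4157 at P0 and to at most 1867 elsewhere. Interstitial and mesenchymal markers, 5 genes, summed to 77.3 to 97.1 at E13.5, 843 to 964 at E16.5, 1251 to 1310 at P0 and 725 to 914 at P3, so they too were highest at P0. Blood markers, 5 genes, summed to 66.3 to 443 for E13.5, 1791 to 2513 for E16.5, 1599 to 2532 for P0 and 291 to 546 for P3. Macrophage and endothelial markers, 5 genes, had their highest sums at E13.5, 4413 to 5144, and at most 1389 elsewhere. Of these 5, however, 4 rose and 1 fell from E13.5 to E16.5, beside 45.5% and 34.6% of all genes. From E13.5 to P0, 3 of them rose and 1 fell, beside 45.7% and 40.5%. The sum thus went against most of the list. Mast cell markers, 5 genes, summed to 1227 to 2628 at P0 and were all at 0 at E13.5. Leydig markers, 5 genes, summed to 7681 in E16.5 library 4 and to 608 and 1210 in E16.5 libraries 1 and 3, and to 1078 to 6106 at P0. Cyp26a1 and Crabp1 had their highest levels at P3. There the sums of the Sertoli, Leydig, peritubular, interstitial, blood and mast cell lists were below those of P0 in every library. The macrophage and endothelial sums overlapped, with 690 to 774 at P3 and 666 to 795 at P0. The part of these markers' cells in the levels of the retinoid genes was not tested at any stage.

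**Figure D4:**
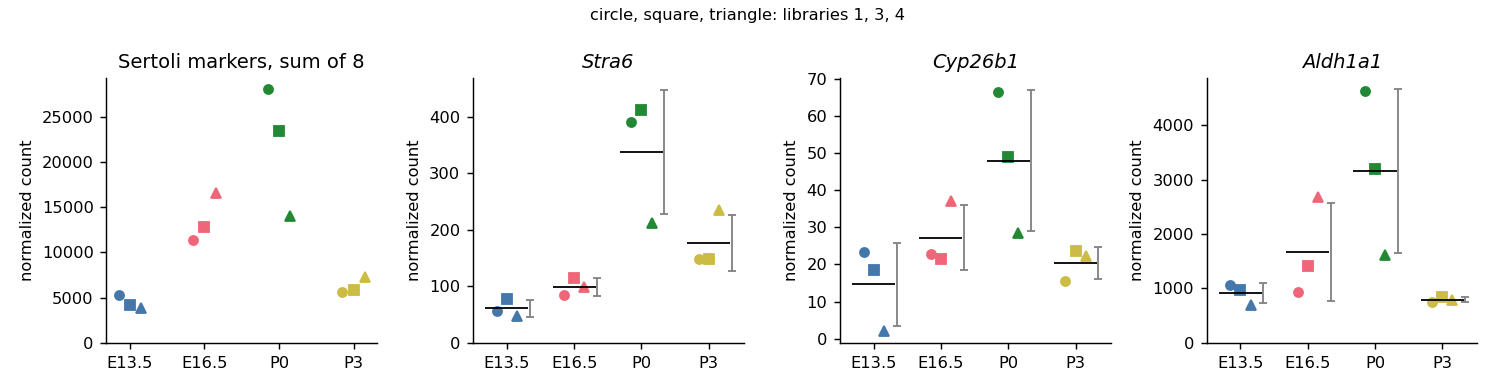
Summed normalized counts of 8 Sertoli markers, and normalized counts of Stra6, Cyp26b1 and Aldh1a1, by stage (x axis); symbols are libraries and, in the gene panels, lines and grey bars are the mean and SD (n = 3). In all 4 panels P0 has the highest mean and library 4 is the lowest of the P0 libraries. Library 4 is also the lowest of the P0 libraries for Rara, Rarg, Rxra, Rxrb and Cyp26a1, which are not drawn here.

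The pathway beyond the 9 members was followed with a list of 54 further genes, of which 53 were in the table and 51 passed the filter on low values. From E13.5 to E16.5, 24 of the 51 rose and 17 fell, shares near the 45.5% and 34.6% of all genes. From E16.5 to P0, 28 rose and 12 fell, beside 27.6% and 33.4% of all genes. With equal totals this was 39 and 6, beside 54.9% and 14.8%. From P0 to P3, 15 rose and 27 fell, beside 40.1% and 36.4%, or 8 and 38 with equal totals, beside 19.7% and 58.4%. The median log2 fold change of the list was 0.30, 0.47 and -0.68, where all genes tested had 0.31, -0.01 and 0.05.

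Genes of retinoic acid synthesis and storage moved in both directions. Of 17 tested, 10 rose and 3 fell from E16.5 to P0, where 27.6% of all genes rose and 33.4% fell. From P0 to P3, 5 rose and 10 fell, where 40.1% of all genes rose and 36.4% fell. With equal totals it was 14 and 2 to P0, beside 54.9% and 14.8%, and 2 and 13 to P3, beside 19.7% and 58.4%. Aldh1a2, which encodes a retinaldehyde dehydrogenase, had 1424 ± 20.7 normalized counts for E13.5, 4155 ± 241 for E16.5, 5908 ± 378 for P0 and 1525 ± 85.8 for P3, and fell by 1.95 on the log2 scale in the last interval (adjusted p 7.32e-13). Aldh1a1, the form known from Sertoli cells, had 4637, 3202 and 1621 at P0 and 752, 849 and 785 at P3, a fall by 1.86 (adjusted p 8.52e-05). Its earlier steps, 0.77 and 0.92 (adjusted p 0.0440 and 0.0248), missed the threshold in 8 and in 4 of the 12 fits without 1 library, and the former was 0.36 without E16.5 library 4. Aldh1a3 rose from 34.8 ± 9.29 at E16.5 to 123 ± 9.21 at P0 (1.83 on the log2 scale, adjusted p 0.000310). Its value at P3 was 233 ± 16.46, a change of 0.91 (adjusted p 0.0284) that missed the threshold with each other scaling and without P0 library 1 or 3 or P3 library 1 or 3.

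Among the retinol and retinaldehyde enzymes, Dhrs3, which returns retinaldehyde to retinol, rose with Cyp26a1 after birth. It had 54.0 ± 9.80 normalized counts for E16.5, 185 ± 16.0 for P0 and 883 ± 93.2 for P3, increases of 1.77 and 2.24 on the log2 scale (adjusted p 8.07e-06 and 2.78e-07). Rdh10, the retinol dehydrogenase of embryos, fell by 1.15 from E13.5 to E16.5, rose by 0.53 to P0 and fell by 0.68 to P3 (adjusted p 1.14e-05, 0.0135 and 0.00195), and the rise missed the threshold without E16.5 library 3. Lrat, which stores retinol as esters, rose by 1.27 to P0 and fell by 3.18 to P3, from 84.3 ± 13.7 to 8.57 ± 2.33 normalized counts (adjusted p 0.00310 and 1.62e-07). Dhrs4 fell by 2.95 from E13.5 to E16.5 (adjusted p 1.67e-13). Rdh14 fell by 1.35 from E16.5 to P0 (adjusted p 4.58e-10). Bco1, which cleaves carotene to retinaldehyde, had 3 reads at E13.5 and 725 ± 61.0 normalized counts at E16.5, a ratio of 677 (95% counting interval 232 to 3287).

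Of 7 binding and uptake genes tested, 6 rose and none fell from E13.5 to E16.5, where 45.5% of all genes rose and 34.6% fell. From P0 to P3, none rose and 5 fell, where 40.1% of all genes rose and 36.4% fell. With equal totals 0 rose and 7 fell in that step, beside 19.7% and 58.4%. Rbp2 had 1 read at E13.5 and 38.7 ± 18.8 normalized counts at E16.5, a ratio of 107 (95% counting interval 18.9 to 4271). Of 14 coregulators, 2 rose and 9 fell from E13.5 to E16.5, beside the same 45.5% and 34.6%. With equal totals it was 5 and 8, beside 55.6% and 23.7% of all genes. Ncoa3, a coactivator of nuclear receptors, rose by 2.41 from P0 to P3 (adjusted p 7.16e-11).

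Genes known to respond to retinoic acid moved in both directions at each step. Of 11 tested, 6 rose and 3 fell from E13.5 to E16.5, near the 45.5% and 34.6% of all genes. To P0, 8 of the 11 rose and 2 fell, beside 27.6% and 33.4% of all genes, and to P3, 3 rose and 7 fell, beside 40.1% and 36.4%. With equal totals it was 8 and 1 to P0, beside 54.9% and 14.8%, and 2 and 8 to P3, beside 19.7% and 58.4%. Stra8, the gene that marks the response of germ cells to retinoic acid, had 125 ± 25.8 normalized counts for E13.5, 436 ± 4.03 for E16.5, 290 ± 32.7 for P0 and 3937 ± 327 for P3. It rose by 3.76 on the log2 scale from P0 to P3 (adjusted p 4.42e-13), and its fall by 0.59 from E16.5 to P0 (adjusted p 0.00129) turned to 0.07 with equal totals. Kit, the receptor of differentiating germ cells, fell by 1.37 and by 1.13 and then rose by 1.28 (adjusted p 1.05e-08, 2.80e-07 and 3.05e-08). Rec8, a meiotic cohesin gene, rose by 0.82 and 0.32 and fell by 1.21 to P3 (adjusted p 9.02e-06, 0.0316 and 1.11e-07); the step of 0.32 was lost without E16.5 library 1 or 3 or P0 library 3 or 4. Msx1 fell by 4.10 from E13.5 to E16.5 (adjusted p 1.95e-09), and Pdk4 fell by 3.39 from P0 to P3 (adjusted p 9.35e-11).

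Genes with the most similar profiles were found for the 6 members with a mean of at least 100 normalized counts, by Pearson correlation of log2(normalized count + 1) over the 12 libraries with 12199 genes. These correlations are descriptions over 4 stages, and all genes of a library share its size factor and depth. Rxrb was most like Mkrn1 and Sh3bp4 (both r = 0.997), and Crabp1 most like Capg (0.998) and Cdyl2 (0.991). Rara was most like Hnrnph1 and Maged2 (both 0.990), and Rxra most like Ets1 (0.987) and Plvap (0.980). Rarg and Upf2 reached 0.974, with Wdr41 at 0.964, and Stra6 and Efhd1 reached 0.968, with Matn2 at 0.954. Capg rose from 1456 normalized counts at E13.5 to 14158 at P3, and Mkrn1 had 41136 at E13.5 and 7770 at P0.

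Over longer spans, all 9 members differed between P0 and E13.5, stages with the same genotype tag, 6 higher and 3 lower at P0, where 86.1% of all genes changed, 45.7% upward and 40.5% downward. Rarb and Cyp26a1, with 5 and 0 reads at E13.5, could not have been lower at P0 or P3. The 3 lower were Rara, Rxrb and Rarg, the last with -1.08 on the log2 scale (adjusted p 0.000885), which became 0.079 with equal totals. At P3 against E16.5, again with 1 tag, 3 members rose and 1 fell, where 69.5% of all genes changed, 34.2% upward and 35.2% downward. Cyp26a1 (4.86 on the log2 scale, adjusted p 7.22e-09), Crabp1 (2.06, adjusted p 5.06e-11) and Stra6 (0.81, adjusted p 0.0146) were higher, and Rarg was lower. The value for Stra6 missed the threshold with equal totals (adjusted p 0.0503) and without E16.5 library 1 or P3 library 4 (adjusted p 0.0601 and 0.0859). At P3 against E13.5, 5 rose and 3 fell, where 70.4% of all genes changed, 39.2% upward and 31.2% downward. The fall of Rarg there, by 0.75 (adjusted p 0.0156), missed the threshold with equal totals (adjusted p 0.150) and without E13.5 library 1 (adjusted p 0.0931). The comparisons share stages and so are not independent of one another.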

How the data were processed

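RNA was sequenced in 12 libraries, grouped by stage from their titles. Per the submitters' processing notes, bcl2fastq 2.20, cutadapt 1.18, HISAT2 2.1.0, featureCounts 1.5.2 and DESeq2 1.26.0 were used with mm10 (GRCm38). Annotation release, strand setting and treatment of reads matching several genes are not given in the sources used here. Per the labels' protocols, the kits were SMART-seq v4 for low input and TruSeq mRNA. The authors deposited a signal, the reads of a gene over the size factor of its library (RLE in the table's name), called a normalized count here. Mean size factors were 0.939 in E13.5 libraries, 1.13 in E16.5, 1.94 in P0 and 1.01 in P3.

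Dividing each library by its smallest value gave whole numbers for 100% of values (tolerance 0.001), and these were taken as the reads. Columns are numbered 1, 3 and 4 but titles number replicates otherwise, so a column was tied to its stage and to no single sample. No pair of libraries within a stage agreed within sampling noise. Symbols matched 55141 of 55487 identifiers (99.4%) in GENCODE M21, and the listed gene Meiosin was not matched. Dhrs9 and Ttr were listed but did not pass the filter.

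Genes reaching 10 normalized counts in 3 or more libraries were tested with limma 3.58.1 (R 4.3.3) on log2(normalized count + 1), with all 12 libraries in 1 fit and Benjamini-Hochberg adjustment over 22384 genes at 0.05. Fold changes are on that scale and are too small for low genes. Folds against a stage at 0 are lower bounds, with 3 reads per library as the floor. Alternatives were TMM, median-of-ratios and equal-total scaling, pseudocounts of 0.1 and 10, fitting the 2 compared stages alone, omitting 1 library at a time, the column number as a block (added after seeing the data), dropping the filter or requiring a mean of 100, and edgeR 4.0.16 (quasi-likelihood) and DESeq2 1.42.0 on recovered reads. edgeR called 17851, 14370 and 17358 genes in the consecutive comparisons, and limma called 17932, 13658 and 17122. The fits were also run on simulated data with changes placed at P0 only and with known size factors. That run did not address the choice of scaling. Python 3.11.15 was used for the other steps, and promoter sequences are from RefSeq.

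The members and lists were chosen with earlier results of these data known. Named are all members, 13 fixed pathway genes, the 2 called list genes that rose most and the 2 that fell most in each consecutive comparison, and the 2 genes most like each member with a mean of at least 100. Of these, 2 genes are not reported here.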

Additional observations from a re-analysis of the deposited data

How the results depend on the processing

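The number of members called stayed within 1.5 times that reported in every comparison and alternative. Leaving out each library in turn called 8 to 9 members in the F-test, 6 to 8 in E16.5 against E13.5, 7 in each case in P0 against E16.5, 6 to 8 in P3 against P0, 9 in P0 against E13.5, 3 to 4 in P3 against E16.5 and 8 in P3 against E13.5.

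Scaling decided several directions. For Rara at P0 against E16.5, TMM, median-of-ratios and equal totals gave 0.10, 0.14 and 0.55, and leaving out single libraries gave -0.26 (without E16.5 library 1) to 0.021 (without P0 library 4). For P3 against P0, median-of-ratios factors and equal totals gave -0.14 and -0.54 for Rara and -0.10 and -0.50 for Rarg, and equal totals gave -0.29 for Rxra. For Rxra, equal totals gave 0.20 in P0 against E16.5, and the 2 scalings gave -0.100 and -0.095 in P3 against E16.5. For P0 against E13.5, equal totals gave 0.079 for Rarg, and for P0 against E16.5 they gave 0.070 for Stra8. Leaving out single libraries took Cyp26b1 in P3 against E13.5 from -0.041 (without E13.5 library 4) to 1.44, and Lrat in E16.5 against E13.5 from -0.045 (without E13.5 library 3; -0.034 without E16.5 library 1) to 0.24. The turns under another scaling follow from its construction, since equal totals shift the all-gene median by 0.47, 0.65 and -0.82 in the consecutive comparisons. The cause of the others was not tested.

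The share of calls that were higher depended on scaling. It was 56.8%, 45.2% and 52.4% in the consecutive comparisons, 70.1%, 78.7% and 25.2% with equal totals, and 62.6%, 59.6% and 38.4% with median-of-ratios factors. At P0 against E16.5 it was 57.1% with TMM factors. At P0 against E13.5 it was 53.0%, or 77.2% with equal totals, and at P3 against E13.5 55.7%, or 68.9%.

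Over the 6 comparisons, edgeR and DESeq2 each changed 1 of 54 member calls and no sign. No label ties the column numbers 1, 3 and 4 to shared animals or batches. With that number as a replicate block, chosen after seeing the data, 8, 7 and 7 members were called in the consecutive comparisons, and none of the 54 member calls changed. Among the other named genes, Aldh1a1 at E16.5 against E13.5 missed the threshold (adjusted p 0.0629). Over all genes the calls were 17911, 13529 and 17028. Deviations from stage means correlated at -0.036 to 0.042 between same-numbered libraries, and none of the 12 libraries correlated best with its own number in every other stage. At the depth of E13.5, Cyp26a1 had no read and Rarb 5, which limits their changes from that stage to bounds and counting intervals.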
